A study of Mus musculus with 22 samples.

Results

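Kainate receptors are tetrameric glutamate-gated cation channels found on both sides of excitatory synapses and on many interneurons. Grik1, Grik2 and Grik3 encode the low-affinity subunits GluK1, GluK2 and GluK3, which can form channels by themselves, whereas Grik4 and Grik5 encode the high-affinity subunits GluK4 and GluK5, which reach the membrane as working channels only together with a low-affinity subunit. Neto1 and Neto2 encode transmembrane CUB-domain proteins that bind the receptor and change its gating and its synaptic delivery. In the hippocampus these receptors are best known from the mossy fibre synapses that dentate granule cells form on CA3 pyramidal cells, and GluK1 in particular from interneurons.

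These 7 genes, that is the 5 pore-forming subunits and the 2 auxiliary subunits, were chosen by name out of the 55385 genes of the count table. Of them, 1 gene, Grik1, lies in the part of chromosome 16 that is present in an extra copy in the Ts66Yah mouse, a model of Down syndrome. All 7 passed the filter on low counts in every comparison.

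RNA-Seq libraries were made from 2 brain regions, the hippocampus (HIP) and the entorhinal cortex (abbreviated EC), in 5 wild-type (wt) and 6 Ts66Yah adult males, so that each of the 11 animals gave 1 library per region. Ts66Yah mice carry, next to their normal chromosomes, a freely segregating minichromosome with the Mir155 to telomere part of mouse chromosome 16. It was derived from the Ts65Dn minichromosome by deleting with CRISPR/Cas9 the centromeric chromosome 17 genes that have no counterpart on human chromosome 21. The line goes back to a single founder on a mixed B6C3B background, and the wt animals were littermates. The C3B parent of this background is a sighted C3H/HeN strain that carries the Pde6b allele of BALB/c. No agent and no further allele was named for either genotype. The 22 libraries held between 25.9 and 50.11 M counted reads (median 34.67 M), and Grik1 was covered by 416 to 987 reads per library. Since these are bulk tissues, fewer cells of a type and less RNA per cell cannot be told apart.

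Grik1 spans chr16:87895900-88290265 on the minus strand (GRCm38), 394.4 kb in all. Grik2 spans chr10:49094833-49788766 (minus), Grik3 chr4:125490700-125714173 (plus), Grik4 chr9:42518135-42944493 (minus), Grik5 chr7:25009849-25072346 (minus) and Neto2 chr8:85636588-85700924 (minus). All members are annotated as protein-coding genes.

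The pore loop, which lines the channel and holds the glutamine that can be recoded by A-to-I editing in GluK1 and GluK2, shows how close the paralogs are and is given here as the genomic coding sequence, read from the annotated GRCm38 transcripts, since reads of near-identical copies could be exchanged between genes. Capitals mark the codon of that glutamine or of the glutamine aligned to it, and each stretch has 45 bases.
Grik1: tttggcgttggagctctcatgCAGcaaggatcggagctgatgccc
Grik2: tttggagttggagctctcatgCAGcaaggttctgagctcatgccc
Grik3: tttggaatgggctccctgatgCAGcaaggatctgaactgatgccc
Grik4: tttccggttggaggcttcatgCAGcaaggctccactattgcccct
Grik5: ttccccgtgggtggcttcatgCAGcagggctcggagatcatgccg

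The capitalised codon is that of residue 636 in Grik1, 621 in Grik2, 623 in Grik3, 606 in Grik4 and 605 in Grik5. In the 3 low-affinity genes the stretch crosses an exon junction, between exons 13 and 14 in Grik1 (chr16:87940538-87940565 and chr16:87936099-87936115) and in Grik2 (chr10:49244325-49244352 and chr10:49240780-49240796), and between exons 12 and 13 in Grik3 (chr4:125691186-125691213 and chr4:125693962-125693978). In the high-affinity genes it lies within a single exon, exon 16 of Grik4 (chr9:42547602-42547646) and exon 15 of Grik5 (chr7:25022476-25022520). Compared with Grik1, 41 of the 45 bases were identical in Grik2, 36 in Grik3, 28 in Grik4 and 32 in Grik5. Over the whole proteins, GluK1 shared 78.4% of aligned residues with GluK2 and 73.4% with GluK3, GluK4 shared 70.0% with GluK5, and low- and high-affinity subunits shared between 43.2% and 46.0%. The auxiliary proteins Neto1 and Neto2 shared 57.6%. In spite of this, no stretch of 50 transcript bases was shared between any of the 7 genes, so that exact matches of that length do not exchange reads among them. With genes outside the family, at most 0.403% of the 50-base stretches of a member were shared on the same strand. No gene overlapped Grik1 or Grik5, and the genes annotated within or across the other 5 had at most 10 reads in any library, or 0.4161% of the member's own count.

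The first comparison asks how the receptor genes differ between Ts66Yah mice, which carry an extra copy of Grik1 together with the rest of the segment, and wt mice. Grik1 RNA was higher in the Ts66Yah hippocampus than in wt and was the only member past the threshold by genotype in either region. Its normalised read counts, scaled to the library size (CPM, the read count per 1 M reads of the library, with TMM factors), were 14.41, 15.7, 12.8, 15.71 and 12.31 in wt HIP, and in Ts66Yah HIP they ran from 16.92 over a median of 19.77 to 22.9 CPM. All 6 Ts66Yah values were thus above the highest wt value. The difference was 0.48 on the log2 scale (SE 0.0884, 1.40-fold, with 1.24 to 1.58-fold at 2 SE on either side), with an adjusted p of 0.02198 in the quasi-likelihood test of edgeR, adjusted by Benjamini-Hochberg over 18452 genes. In the hippocampus 0.439% of the tested genes were called higher in Ts66Yah and 0.152% lower. The call was lost without wt HIP replicate 1, 3 or 5 or Ts66Yah HIP replicate 6, each in turn (log2 difference 0.49, 0.44, 0.44 and 0.48, adjusted p from 0.05104 to 0.07344), and in a fit with a block for the 2 ranges into which the animal numbers fall, which drops 1 animal (0.48, adjusted p = 0.09297).

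In the entorhinal cortex the mean of Grik1 was also higher in Ts66Yah, but the difference did not pass the threshold. The wt EC libraries had 17.46, 14.84, 17.24, 18.9 and 15.9 CPM, and the Ts66Yah EC libraries ran from 16.26 over a median of 23.22 to 25.84 CPM. Here the groups overlapped through 1 library, that of Ts66Yah replicate 5, while the other 5 Ts66Yah values lay above all wt values. The log2 difference was 0.41 (SE 0.1112, 1.33-fold, with 1.14 to 1.56-fold at 2 SE on either side, adjusted p = 0.304 by edgeR). Among the genes tested in EC, 0.272% were called higher and 0.0113% lower. Without Ts66Yah EC replicate 5 the log2 difference was 0.49 and passed the threshold (adjusted p = 0.02232). It was 0.47 (adjusted p = 0.06162) without that library and wt EC replicate 5 together, an alternative chosen after seeing the data. In the test of the interaction, the genotype difference of Grik1 in EC was lower by 0.07 on the log2 scale than that in HIP (SE 0.144, adjusted p = 1 by edgeR), so that a difference between the regions was not shown.

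**Figure D1:**
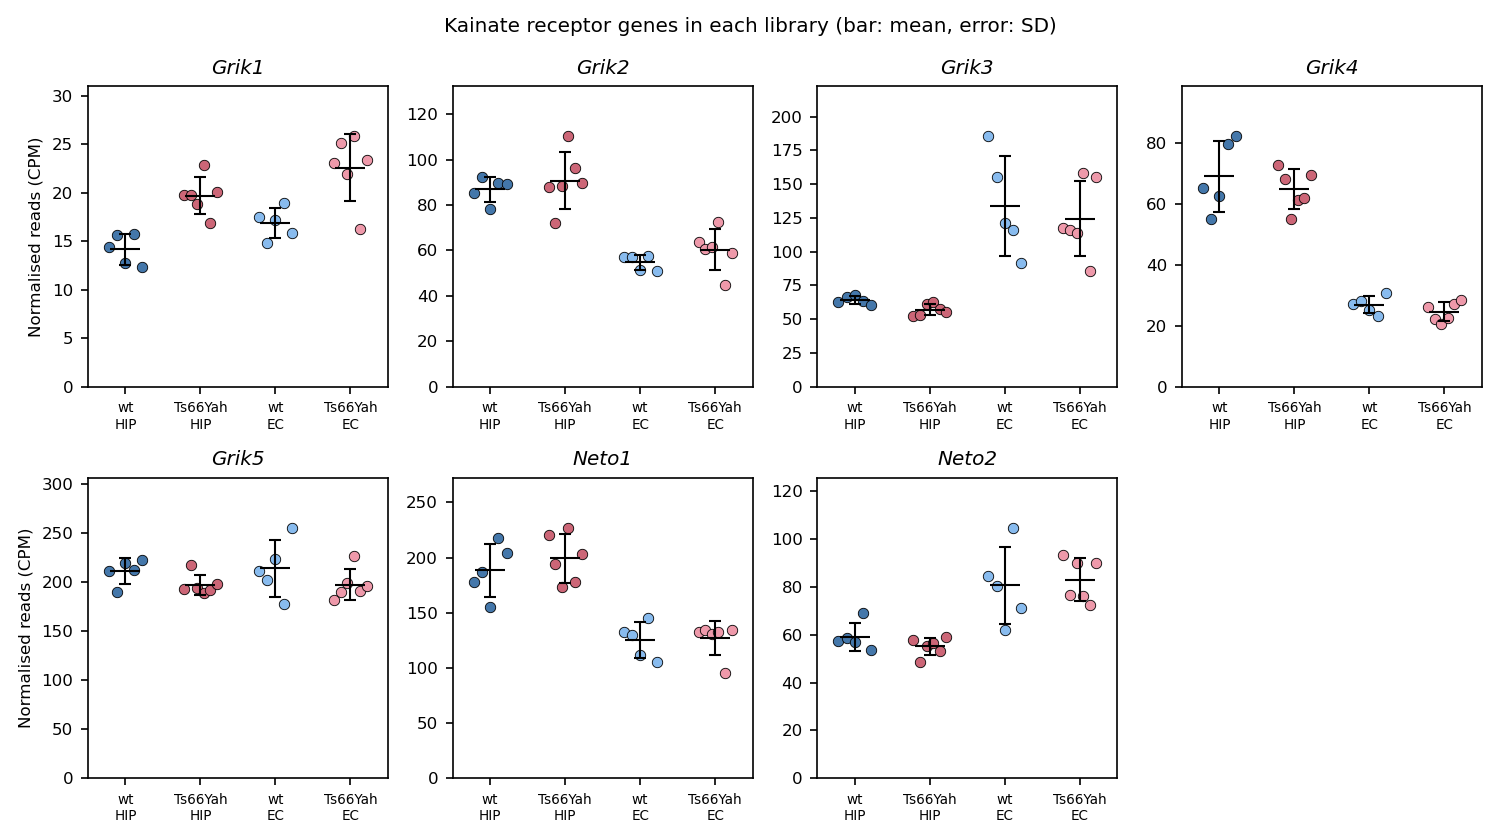
Normalised reads (CPM, linear axes from 0) of the 7 kainate receptor genes in each of the 22 libraries, with 5 wt and 6 Ts66Yah libraries per region, a horizontal bar for the mean and an error bar for the SD. Grik1 is separated by genotype in HIP, with all Ts66Yah libraries above 15.71 CPM, the highest wt value, and overlaps in EC through 1 Ts66Yah library at 16.26 CPM, while Grik3, Grik4 and Neto1 do not overlap between regions within either genotype, and Grik2 overlaps between regions in Ts66Yah and Neto2 in wt.

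The animal behind that low EC value was also the lowest of its group in the hippocampus. Relative to the wt mean of the region, Grik1 in Ts66Yah replicate 5 stood at 0.26 in HIP and -0.05 in EC on the log2 scale of CPM with a prior count of 2, whereas the other 5 Ts66Yah animals had 0.42 to 0.70 in HIP and 0.39 to 0.62 in EC. The triplicated segment as a whole was nevertheless raised in this animal. Over segment genes averaging 1 CPM or more, the median was 0.58 in HIP (80 genes) and 0.54 in EC (75 genes), against 0.55 to 0.59 and 0.55 to 0.63 in the other Ts66Yah animals. Of the 7 members, Grik1, Grik2, Grik3, Neto1 and Neto2 all had their lowest Ts66Yah EC value in replicate 5. The same EC library had low values for long transcripts. The median log2 deviation from the group mean was 0.26 lower for the protein-coding genes with the longest transcripts (4865 bases or more, the upper quartile) than for those with the shortest (2140 bases or fewer, the lower quartile), a difference of -0.2616. This value was -0.2693 in wt EC replicate 5 and between -0.1061 and 0.1384 in the other 20 libraries. Mitochondrial genes took 6.40% of the normalised reads in Ts66Yah EC replicate 5 and 5.22% in wt EC replicate 5, against 3.57 to 4.97% in the other 20. In wt EC replicate 5, Grik2, Grik3 and Neto1 were likewise at the lowest value of their group (51.02, 91.83 and 105.2 CPM) and Grik4 and Grik5 at the highest (30.67 and 255.2 CPM). The length classes were set by the longest coding transcript, and with 3655 bases Grik1 is in neither. By its annotated exon sequence of 6721 bases, Grik1 would lie above the limit of the long class. It had 15.9 CPM in wt EC replicate 5, above the lowest wt EC value of 14.84 CPM. Grik2, Grik3, Grik4, Neto1 and Neto2 are in the long class. Of these, Grik4 had 27.12 CPM in Ts66Yah EC replicate 5, within its group range of 20.79 to 28.57 CPM. The HIP library of Ts66Yah replicate 5 had a length difference of -0.05815. The part of these shifts in the Grik1 result was not tested.

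**Figure D2:**
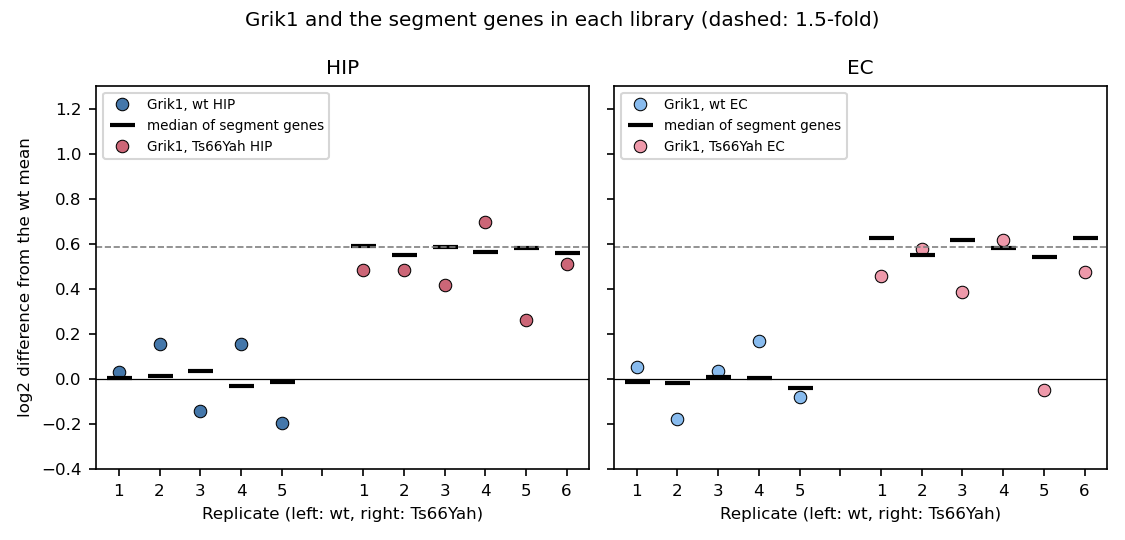
Log2 difference of Grik1 (circles) and of the median segment gene (bars) from the wt mean of the region, for each library of HIP (left) and EC (right), with wt replicates on the left of each panel, Ts66Yah replicates on the right and 1.5-fold as a dashed line. The segment medians of the Ts66Yah libraries lie between 0.54 and 0.63, while Grik1 falls to -0.05 in EC of Ts66Yah replicate 5.

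An extra copy of a gene present in 2 copies corresponds to a 1.5-fold dose, and the difference of Grik1 from this value was tested next. Grik1 was 0.10 below 1.5-fold in HIP on the log2 scale (-0.1017, SE 0.08784, adjusted p over the segment genes = 0.6416) and 0.17 below it in EC (-0.1702, SE 0.1105, adjusted p = 0.6199), both by edgeR's quasi-likelihood test. A departure from the 1.5-fold dose was thus not shown in either region, and the 2 SE bounds given above reach 1.58-fold in HIP and 1.56-fold in EC. In this test 5.94% of the 101 segment genes departed from 1.5-fold in HIP and 1.08% of 93 in EC. The segment genes had a median log2 difference between Ts66Yah and wt of 0.59 in HIP (quartiles 0.49 and 0.68) and 0.57 in EC (0.46 and 0.67). Grik1 lay below the lower quartile in both regions. There were 76 segment genes above it and 24 below in HIP, and 74 above and 18 below in EC. The HIP gap was narrow, at 0.4832 for Grik1 (SE 0.0884) against a quartile of 0.4855. Grik1 itself was 0.4856 by DESeq2 and 0.4982 by limma voom in HIP. For EC it was 0.4147 against a quartile of 0.459, and 0.4915 without Ts66Yah EC replicate 5. The quartiles were not recomputed for these alternatives. Against wt, 57.4% of the segment genes were called higher in HIP and 48.4% in EC.

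The nearest tested protein-coding genes on both sides of Grik1 give its surroundings on the minichromosome. By GRCm38 positions they lie 162.6 to 400 kb away on the centromeric side and 1497 to 1935 kb away on the telomeric side. On the centromeric side, Cct8, a subunit of the TRiC chaperonin, was higher by 0.60 in HIP and 0.65 in EC on the log2 scale (adjusted p = 1.222e-05 and 0.0004335), and Bach1, a haem-binding transcriptional repressor, by 0.44 and 0.59 (adjusted p = 0.005686 and 0.002729). Map3k7cl, at 0.6007 CPM in HIP and 0.647 CPM in EC, had differences of -0.06 and 0.51, neither past the threshold. On the telomeric side, Tiam1, a guanine nucleotide exchange factor for Rac, was higher by 0.59 and 0.66 (adjusted p = 0.0001286 and 0.01856). Sod1, the cytosolic superoxide dismutase, was higher by 0.43 in HIP (adjusted p = 0.006999) and had 0.46 in EC (adjusted p = 0.1209). Scaf4, which binds RNA polymerase II and prevents early termination, had 0.36 and 0.32 (adjusted p = 0.05647 and 0.5239). In HIP, 4 of these 6 neighbours passed the threshold, against 57.4% of the segment genes called higher. In EC 3 did, against 48.4%, so that both counts were near the shares of the segment.

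None of the other members passed the threshold by genotype. Grik2, the principal low-affinity subunit of many excitatory neurons, had 85.17, 92.18, 78.13, 89.81 and 89.29 CPM in wt HIP and 71.95 to 110.3 CPM (median 89) in Ts66Yah HIP. Its log2 difference was 0.07 in HIP (SE 0.08617, adjusted p = 0.8125) and 0.13 in EC (SE 0.09776, adjusted p = 0.9339) by edgeR. The Ts66Yah range enclosed the wt range in both regions.

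Grik3, whose product responds only to high glutamate concentrations, had 62.89, 66.29, 67.65, 63.63 and 60.28 CPM in wt HIP and 52.4 to 62.86 CPM (median 56.7) in Ts66Yah HIP. The Ts66Yah values lay lower with a narrow overlap, and the log2 difference of -0.16 (SE 0.05575) had an adjusted p of 0.2728 by edgeR. In EC the values were widely spread within each group, at 185.5, 155.2, 121, 115.7 and 91.83 CPM in wt and 85.6 to 158.1 CPM in Ts66Yah, and the log2 difference was -0.12 (SE 0.1846, adjusted p = 0.975). Leaving out wt EC replicate 1, the highest, brought this to 0.05.

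Of the high-affinity subunits, Grik4 had 55.17 to 82.34 CPM in wt HIP and 55.11 to 72.79 in Ts66Yah HIP, with log2 differences of -0.08 in HIP and -0.14 in EC (SE 0.1009 and 0.09639, adjusted p = 0.8047 and 0.9183 by edgeR). Grik5 had 189.8 to 222.3 CPM in wt HIP and 188.8 to 217.2 in Ts66Yah HIP, with -0.09 and -0.12 (SE 0.04993 and 0.0835, adjusted p = 0.4853 and 0.9147). For Grik5 the bounds at 2 SE ran from 0.874 to 1.004-fold in HIP and from 0.818 to 1.03-fold in EC.

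For the auxiliary subunits, Neto1, which lies at 86394952 to 86506718 of chromosome 18 on the plus strand, had 155.1 to 218 CPM in wt HIP and 173.3 to 227.2 in Ts66Yah HIP, and Neto2 had 53.49 to 68.96 and 48.58 to 58.82. The log2 differences of Neto1 were 0.09 in HIP and 0.01 in EC (adjusted p = 0.7667 and 0.9974 by edgeR), and those of Neto2 were -0.09 and 0.03 (adjusted p = 0.6227 and 0.9916). The 6 members outside the segment thus had differences between -0.16 and 0.13 on the log2 scale, with none called in either direction. At 2 SE, the widest bounds in HIP were 0.82-fold (Grik4) and 1.204-fold (Neto1), and in EC 0.714-fold (Grik3) and 1.252-fold (Grik2).

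**Figure D3:**
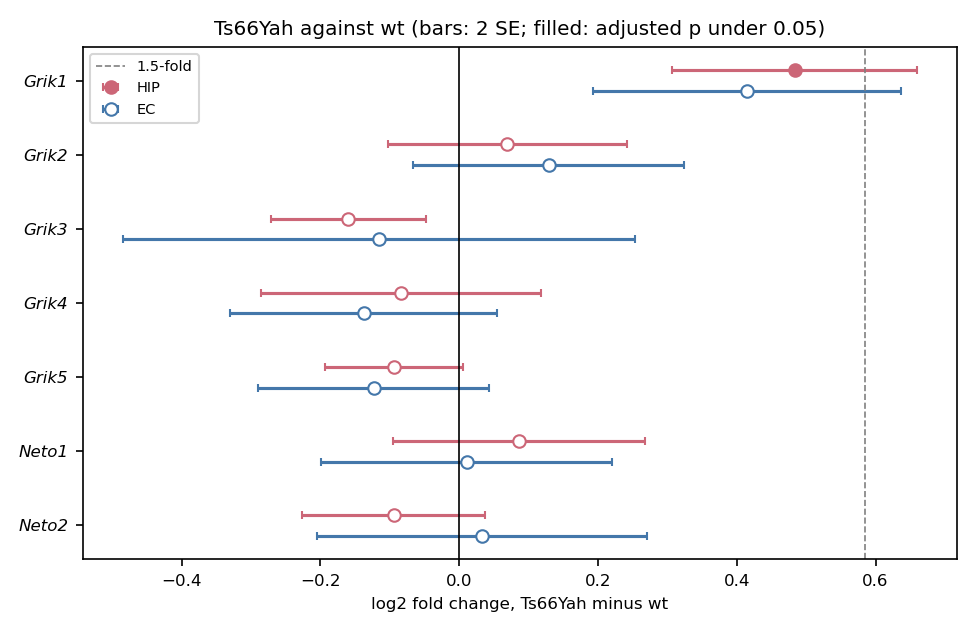
Log2 fold change between Ts66Yah and wt of the 7 members in HIP and EC, with bars of 2 SE from edgeR, filled symbols for an adjusted p under 0.05 and a dashed line at 1.5-fold. Grik1 in HIP (0.48) is the filled symbol, Grik1 in EC (0.41) is open, and the other 6 members lie between -0.16 and 0.13.

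Levels were compared between genes as CPM per kb of annotated exon sequence. Grik5 had the highest level of the 7 genes and Grik1 the lowest in all 4 groups. In wt HIP, Grik5 had 40.8 ± 2.47 CPM per kb (SD, n = 5), Neto1 22.6 ± 2.90, Grik4 11.6 ± 1.94, Neto2 9.64 ± 0.955, Grik3 7.15 ± 0.323, Grik2 6.56 ± 0.417 and Grik1 2.11 ± 0.237. In this order the ranges of Grik4 and Neto2 overlapped, as did those of Grik3 and Grik2, and the other neighbours did not. In wt EC the order was Grik5 (41.3 ± 5.55), Neto1 (15.0 ± 1.95), Grik3 (14.9 ± 4.09), Neto2 (13.1 ± 2.61), Grik4 (4.51 ± 0.475), Grik2 (4.14 ± 0.247) and Grik1 (2.51 ± 0.231). The ranges of Neto1 and Grik3, of Grik3 and Neto2, and of Grik4 and Grik2 overlapped. In Ts66Yah HIP, Grik1 stood at 2.93 ± 0.289 (SD, n = 6) and did not overlap with Grik3, the next above it at 6.37 ± 0.491. In Ts66Yah EC it stood at 3.36 ± 0.508, and its range overlapped with that of Grik4 (4.12 ± 0.523).

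Expressed as shares of the summed level of the 5 pore-forming subunits, Grik5 made up 59.8 ± 1.61% in wt HIP, 58.5 ± 2.13% in Ts66Yah HIP, 61.3 ± 5.55% in wt EC and 59.7 ± 3.19% in Ts66Yah EC. Grik1 made up 3.11 ± 0.462% in wt HIP and 4.50 ± 0.404% in Ts66Yah HIP. In EC it was 3.76 ± 0.636% in wt and 5.25 ± 0.602% in Ts66Yah. The Grik1 shares of the HIP libraries ran from 2.54 to 3.73% in wt and from 3.95 to 5.20% in Ts66Yah and did not overlap, and those of EC, 3.26 to 4.83% and 4.27 to 6.07%, did. Both high-affinity subunits together held 76.7 ± 2.02% in wt HIP and 75.2 ± 2.51% in Ts66Yah HIP, and 68.0 ± 5.78% in wt EC and 66.2 ± 3.61% in Ts66Yah EC. These shares, and the order of the levels given above, depend on the length assigned to each gene. With the longest coding transcript in its place (3655 instead of 6721 bases for Grik1), Grik1 made up 4.43% in wt HIP, 6.36% in Ts66Yah HIP, 5.38% in wt EC and 7.44% in Ts66Yah EC, and in both EC groups its share was then above that of Grik4 (5.27% and 5.08%).

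**Figure D4:**
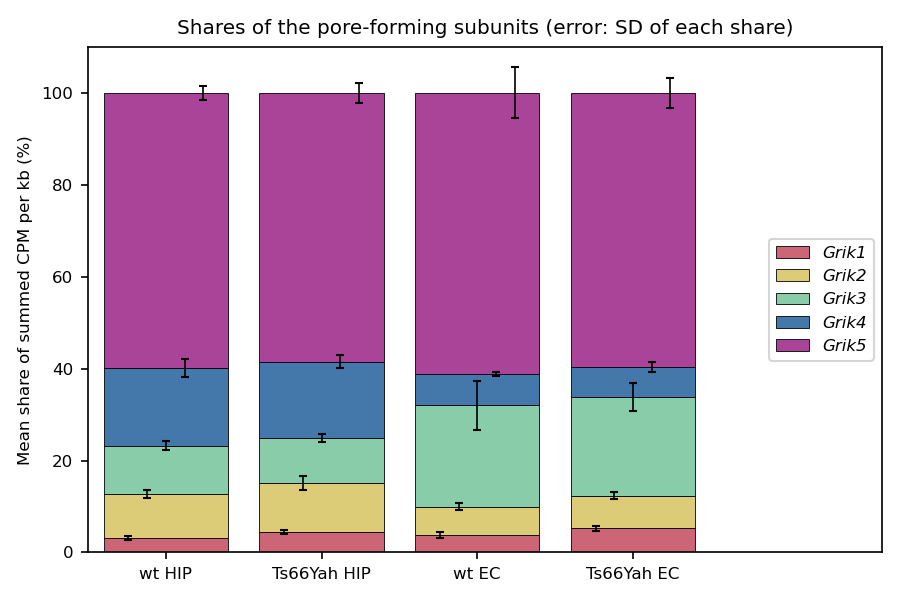
Mean share of each pore-forming subunit in the summed CPM per kb of Grik1 to Grik5, stacked for the 4 groups, with the SD of each share as an error bar at its upper edge. Grik5 takes 58.5 to 61.3% in every group, Grik3 takes 10.5% (wt) and 9.80% (Ts66Yah) in HIP against 22.1% and 21.5% in EC, and Grik4 16.9% and 16.7% in HIP against 6.70% and 6.51% in EC.

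The remaining question is how the receptor genes differ between the regions, and whether they do so alike in both genotypes. Grik3 and Neto2 were higher in EC than in HIP, Grik2, Grik4 and Neto1 were lower, and Grik5 did not pass the threshold, in wt and in Ts66Yah mice. In wt mice 3 members were called higher in EC and 3 lower, against 23.4% and 24.3% of all tested genes. In Ts66Yah mice 2 were called higher and 3 lower, against 26.4% and 27.5%. Both regions of an animal entered the same fit, without a term for the animal.

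Grik4, which is strongly expressed by CA3 pyramidal cells, had the largest difference of the 7. It had 65.43, 55.17, 62.83, 79.84 and 82.34 CPM in wt HIP and 27.06, 28.3, 25.25, 23.28 and 30.67 CPM in wt EC, with no overlap. The log2 difference between EC and HIP was -1.34 in wt (SE 0.1141, 0.395-fold, adjusted p = 1.114e-06) and -1.40 in Ts66Yah (SE 0.08897, 0.379-fold, adjusted p = 1.246e-08), by edgeR's quasi-likelihood test as for the values that follow. The level of Grik4 relative to that of Grik5, both per kb, was 0.283 ± 0.0377 in wt HIP and 0.110 ± 0.00892 in wt EC. With the longest coding transcript as the length it was 0.2087 and 0.08095.

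Grik3 moved the other way, by 1.08 in wt (SE 0.1539, 2.12-fold, adjusted p = 8.276e-05) and 1.12 in Ts66Yah (SE 0.1233, 2.18-fold, adjusted p = 2.75e-06). Its lowest EC value, 85.6 CPM, was above its highest HIP value, 67.65 CPM. Grik2 was lower in EC by 0.64 in wt (-0.6447, SE 0.0685, adjusted p = 7.299e-06) and by 0.59 in Ts66Yah (-0.5898, SE 0.1059, adjusted p = 0.000275). The ranges of Grik2 were apart in wt, at 78.13 to 92.18 CPM in HIP and 51.02 to 57.38 CPM in EC, and met in Ts66Yah, where the lowest HIP value was 71.95 CPM and the highest EC value 72.52 CPM. As a result, the ratio of Grik2 to Grik3, per kb, went from 0.920 ± 0.0832 in wt HIP to 0.292 ± 0.0667 in wt EC, and from 1.07 ± 0.104 to 0.335 ± 0.0440 in Ts66Yah. With the longest coding transcript as the length, this ratio was 1.293 in wt HIP, with Grik2 then above Grik3, and 0.41 in wt EC.

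The auxiliary subunits also differed in opposite directions. Neto1 was lower in EC by 0.57 in wt (-0.5712, SE 0.11, adjusted p = 0.0008798) and by 0.65 in Ts66Yah (-0.6516, SE 0.08737, adjusted p = 1.964e-05). Neto2 was higher by 0.47 in wt (SE 0.1263, adjusted p = 0.008144) and 0.59 in Ts66Yah (SE 0.0675, adjusted p = 4.041e-06). Neto1 accounted for 70.0 ± 2.49% of the summed level per kb of both auxiliary genes in wt HIP and 53.5 ± 2.44% in wt EC, and for 72.5 ± 2.08% and 52.8 ± 2.86% in Ts66Yah.

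Grik1 was higher in EC than in HIP by 0.27 in wt (SE 0.09912, 1.21-fold, adjusted p = 0.03878), and had 0.20 in Ts66Yah (SE 0.09928, adjusted p = 0.108). With the animal as a replicate block these values were 0.27 (adjusted p = 0.02049) and 0.19 (adjusted p = 0.01609), so that the pairing of the regions by animal moved the Ts66Yah value past the threshold. The wt call was lost without wt replicate 1, 3, 4 or 5, each in turn (log2 difference 0.26, 0.23, 0.26 and 0.25, adjusted p from 0.06044 to 0.1489), and with no filter on low counts (0.27, adjusted p = 0.0639). Without Ts66Yah replicate 5 the Ts66Yah difference was 0.24 (adjusted p = 0.01343). Grik5 had 0.04 in wt (SE 0.08273, adjusted p = 0.7539) and 0.00 in Ts66Yah (0.0008079, SE 0.05528, adjusted p = 0.9911).

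The test of the interaction between genotype and region called none of the 7 members and 0% of the 19074 genes tested by edgeR (388 at an unadjusted p under 0.05, and 0 adjusted by DESeq2 or limma voom). The interaction terms of the members lay between -0.07 (Neto1) and 0.13 (Neto2) on the log2 scale, with unadjusted p from 0.3809 to 0.8258.

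**Figure D5:**
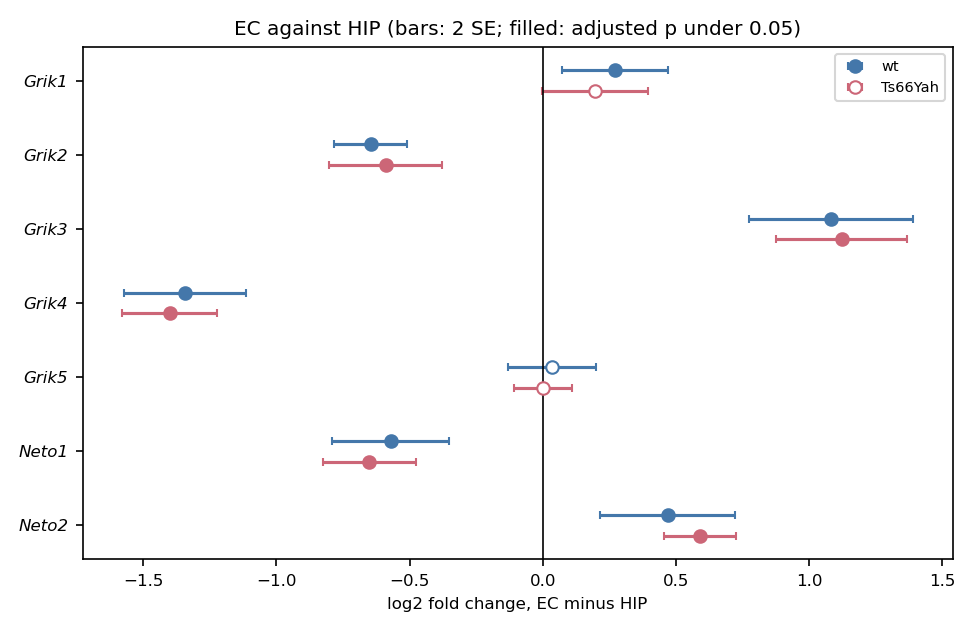
Log2 fold change between EC and HIP of the 7 members in wt and in Ts66Yah mice, with bars of 2 SE from edgeR and filled symbols for an adjusted p under 0.05. Grik3 (1.08 and 1.12) and Neto2 (0.47 and 0.59) lie to the right, and Grik4 (-1.34 and -1.40), Grik2 (-0.64 and -0.59) and Neto1 (-0.57 and -0.65) to the left. Grik1 is filled in wt only, in fits without a term for the animal. With the animal as a replicate block it passed the threshold in both genotypes. The difference of Grik1 between genotypes did not pass the threshold in the test of the interaction.

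The labelled regions were checked against their markers. The summed level of 6 dentate granule cell markers was 273 to 357 CPM in the HIP libraries and 20.96 to 26.46 CPM in the EC libraries, and that of 6 neocortical markers 218 to 282.2 CPM and 707.9 to 852.6 CPM. The 12 interneuron markers, the cells in which Grik1 is best known, summed to 1284 to 1418 CPM in wt HIP, 1240 to 1454 CPM in Ts66Yah HIP, 1466 to 1700 CPM in wt EC and 1632 to 1732 CPM in Ts66Yah EC. The ranges of both genotypes overlapped in each region, the Ts66Yah median being 1699 and the wt median 1594 CPM in EC, with 0 of 12 called by genotype in either region (edgeR), and their part in the Grik1 values of EC was not tested. Between regions, 5 of the 12 were called higher in EC in wt and none lower (23.4% and 24.3% of all tested genes), and 6 higher and 1 lower in Ts66Yah (26.4% and 27.5%). The 10 choroid plexus markers summed to 120.7 to 3462 CPM in HIP and 12.76 to 46.87 CPM in EC, and the 10 oligodendrocyte markers to 7448 to 10940 CPM and 1549 to 3610 CPM. The 4 CA1 and CA3 markers summed to 333.4 to 455.8 CPM in HIP and 239.7 to 346.1 CPM in EC, the 9 striatal markers to 84.33 to 120 CPM and 188.5 to 420.4 CPM, and the 7 microglial markers to 299.7 to 409.3 CPM and 374.8 to 503.7 CPM. The CA1 and CA3 sum hides opposite directions. In each genotype 3 of these 4 were called lower in EC and 1 higher, against the same shares of all tested genes. Their log2 differences in wt ran from -5.442 to 0.4252. No marker was at 0 in all libraries of a group, and none was called by genotype. The log2 difference by genotype was positive for 9 of 12 interneuron markers in HIP and 11 of 12 in EC. It was positive for 0 of 7 microglial markers in either region. Olig1 and Olig2 of the oligodendrocyte list and Clic6 and Kcne2 of the choroid plexus list lie in the triplicated segment. The part of the markers in the region differences was not tested.

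Of a list of 21 genes known to scaffold, traffic, modify, organise or edit kainate receptors, 20 were tested. None was called by genotype in HIP (median log2 difference 0.04, against 1.392e-05 over all genes tested) or in EC (0.06, against -0.004456). The smallest p in HIP belonged to C1ql2 and C1ql3, secreted C1q-like proteins that gather kainate receptors at mossy fibre synapses. C1ql2 had 44.1 ± 13.4 CPM in wt HIP (SD, n = 5) and 29.0 ± 8.09 CPM in Ts66Yah HIP (n = 6), a log2 difference of -0.60 (SE 0.2217, adjusted p = 0.3022 by edgeR), with overlapping ranges. C1ql3 had a log2 difference of 0.17 (SE 0.06407, adjusted p = 0.3184). In EC the smallest p belonged to Adar, an editing enzyme of double-stranded RNA (0.14, adjusted p = 0.8714), and Nrxn3, a presynaptic neurexin (0.12, adjusted p = 0.8848). In the test of the interaction they belonged to C1ql2 (0.97) and Dlg4, which encodes the scaffold PSD-95 (-0.10), both with an adjusted p of 1.

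Between regions, 11 of the 20 were called higher in EC and 4 lower in wt (median log2 difference 0.28, against 0.01058 over all genes), and 11 and 5 in Ts66Yah (0.21, against 0.005459). Over all tested genes the shares called were 23.4% higher and 24.3% lower in wt, and 26.4% and 27.5% in Ts66Yah, so that the count of list genes called lower was close to the background. By group these were, in wt and against the same background, 3 of 6 scaffolds higher and 1 lower, 1 of 4 ubiquitin or SUMO pathway genes higher and 1 lower, 3 of 3 genes of trafficking and adhesion higher, 3 of 4 synaptic organisers higher and 1 lower, and 1 of 3 RNA editing genes higher and 1 lower. The highest were Dlg1 (0.75) and Cask (0.60), both membrane-associated scaffolds, and C1ql3 (0.56). The lowest were C1ql2 (-5.72), Adarb2 (-0.87), an editing-family member without known deaminase activity, and Senp1 (-0.41), which removes SUMO. In Ts66Yah the highest were Dlg1 (0.80), Cask (0.62) and C1ql3 (0.46) and the lowest C1ql2 (-4.76), Adarb2 (-0.75) and Senp1 (-0.39). All these passed the threshold by edgeR. C1ql2 is also among the dentate granule cell markers and stood at 0.811 ± 0.329 CPM in wt EC. Adarb1, the enzyme that edits the pore-loop glutamine codon, had -0.17 in wt (adjusted p = 0.05566) and -0.23 in Ts66Yah (adjusted p = 0.001968).

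Of the 13 other ionotropic glutamate receptor genes, AMPA and NMDA receptor genes among them, 12 were tested and none was called by genotype in either region (median log2 difference 0.04 in HIP and 0.03 in EC). Nearest to the threshold was Grin2c, an NMDA receptor subunit, at 46.4 ± 4.58 CPM in wt HIP and 37.6 ± 1.84 CPM in Ts66Yah HIP with ranges that did not overlap, a log2 difference of -0.29 (SE 0.06275, adjusted p = 0.05604 by edgeR). Grin2b had 0.13 in HIP (adjusted p = 0.4073). In EC the smallest p belonged to Gria4 (0.15, adjusted p = 0.8193) and Grin2c (-0.19, adjusted p = 0.8697), and in the test of the interaction to a pair that included Gria3 (-0.13, adjusted p = 1). Between regions, 5 of the 12 were called higher in EC and 3 lower in wt (23.4% and 24.3% of all tested genes), and 6 and 4 in Ts66Yah (26.4% and 27.5%), the count called lower in wt being close to the background. The highest were the AMPA receptor gene Gria4 (0.92 in wt, 0.97 in Ts66Yah) and the NMDA receptor gene Grin3a (0.81 and 0.85). The lowest were Gria1 (-1.52 in both), Grin2a (-1.05 and -1.07) and Gria2 (-0.61 and -0.64).

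As a description, the genes whose log2 CPM ran most closely with each member over the 22 libraries were sought among the 14950 genes averaging 1 CPM or more. The libraries share animals, and the values reflect differences between groups as well as within them. For Grik1 they were Ttc3 (Pearson r = 0.8828), March1 (0.8802), Ltn1 (0.8774), Hlcs (0.8627) and Lgr4 (0.8616), of which Ttc3, Ltn1 and Hlcs lie in the same triplicated segment. After subtracting the group means these values fell to between 0.568 and 0.7652. For Grik2 they were Mtf2 (0.9727) and Dcc (0.966), for Grik3 Erich3 (0.9611) and Rai14 (0.9584), for Grik4 Hpca (0.9794) and Sebox (0.9779), and for Grik5 Tmem134 (0.8485) and Dok7 (0.8396). For Neto1 they were Odr4 (0.9561) and Mysm1 (0.951), and for Neto2 Hdgfl3 (0.9362) and Ptpn4 (0.9329). After subtracting the group means, the values of the members other than Grik1 lay between 0.5734 (Grik4 with Hpca) and 0.9165 (Grik2 with Dcc). Over the HIP libraries alone, r for these pairs ran from 0.415 (Grik3 with Erich3) to 0.8527 (Grik2 with Dcc). Over the EC libraries alone it ran from 0.6552 (Grik4 with Hpca) to 0.975 (Grik2 with Dcc).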

How the data were processed

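RNA was extracted from flash-frozen tissue and sequenced as single-end reads. According to the study's methods, Hisat2 was the aligner (GRCm38) and HTSeq-count assigned the reads to Ensembl genes. Strand setting, versions and the treatment of multi-mapping reads were not given in the sources used here, and labels and methods name different library kits. The authors deposited whole-number read counts per gene, which were used as deposited, and tables of their own comparisons, not used here. Groups came from the sample labels. Symbols, lengths and sequences came from GENCODE M21 (55144 of 55385 identifiers matched).

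Counts were normalised with TMM factors (CPM; log2 CPM with a prior count of 2), filtered with filterByExpr and tested with the quasi-likelihood test of edgeR 4.0.16 (R 4.3.3), with Benjamini-Hochberg adjustment over all genes tested and a threshold of 0.05. For the 1.5-fold dose, the log of 1.5 was added to the offsets of the segment genes in Ts66Yah libraries. On simulated HIP counts, 78 of 100 genes changed 1.5-fold were recovered. The simulation covered HIP only, changed only genes above a minimum mean count, and gave all genes the same spread between libraries. In the real libraries a smaller part of the triplicated segment passed the threshold, 57.4% of its genes in HIP and 48.4% in EC. The simulated share is therefore no measure of how often a 1.5-fold change would be called here. Levels per kb, shares and lists were described without a test. HIP and EC samples of an animal were paired by the animal numbers in the labels (correlation of their deviations from 0.2084 to 0.4677). No libraries of a group differed by less than sampling noise. Named genes were the 7 members, the list genes past the threshold (3 highest and 3 lowest where over 6, otherwise the 2 with the smallest p), the 3 nearest neighbours of Grik1 on each side, overlapping genes and the genes most alike over libraries (5 for Grik1, 2 for each other member). One list gene that this rule names is not reported here. The members and lists were chosen with earlier results of these data known. Alternatives were DESeq2 1.42.0, limma voom 3.58.1, RLE factors, other filters, joint fits, blocks, leaving out libraries, and other lengths.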

Additional observations from a re-analysis of the deposited data

Results flagged for a closer look

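In 2 of the 28 groups of values formed by the 7 genes and 4 groups of libraries, 1 library stood apart from the others by Dixon's criterion, which chance meets in about 1 of 20 such groups. Neto1 in Ts66Yah EC had 95.56 CPM in replicate 5, against 130.9 to 134.8 CPM in the other 5 libraries (gap over range 0.9006). This is the EC library in which long transcripts were low and in which Grik1, Grik2, Grik3 and Neto2 also had their lowest Ts66Yah value. Grik5 in Ts66Yah HIP had 217.2 CPM in replicate 2, against 188.8 to 197.9 CPM in the other 5 libraries (gap over range 0.6796). No explanation was tested for either.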

How the results depend on the processing

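Of 875 alternative values of 56 results, 824 kept direction and call (of counts, stayed within 1.5 times). The difference of Grik1 between genotypes in HIP was 0.43 to 0.52 on the log2 scale when each library was left out in turn, past the threshold in 7 of 11 fits (0 to 1 members called higher). With a block for the 2 ranges of animal numbers, a fit that drops 1 animal, it was 0.48 and not past it (0 members called higher). In EC it was 0.37 to 0.49, past the threshold in 1 of 11 fits (0 to 1 members called higher). The causes were not tested.

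Directions that turned belonged to differences that passed the threshold under none of the alternatives run. In EC between genotypes, leaving out single libraries moved Grik3 between -0.2288 and 0.04509, Neto1 between -0.05022 and 0.0822 and Neto2 between -0.04234 and 0.1578, and Grik3 had 0.08149 with the block for animal number ranges. Leaving out single animals moved the region difference of Grik5 between -0.01326 and 0.09866 in wt and between -0.05589 and 0.04101 in Ts66Yah. In Ts66Yah it was -0.0005566 by limma voom, -0.01156 with the filter of 1 CPM in 5 libraries and -0.001206 with the animal as a replicate block. The interaction moved between -0.0455 and 0.1983 for Grik3, -0.1513 and 0.04461 for Grik4, and -0.08592 and 0.0191 for Grik5.

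Matched replicate numbers of wt and Ts66Yah had correlations of their deviations of -0.01 to 0.06 in HIP and 0.01 to 0.19 in EC. The highest, 0.1857, belonged to replicate 5 in EC. Unmatched numbers were not compared, so that these values cannot decide whether the numbers link animals across genotypes. With the replicate number as a replicate block, Grik1 had 0.48 in HIP (adjusted p = 0.02689 by edgeR) and 0.39 in EC (0.4729), and Neto1 had -0.007393 in EC. The animal as a replicate block changed the region call of Grik1 in Ts66Yah and of no other member.

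Over all genes, 109 were called by genotype in HIP, against 357 by DESeq2, 61 with the replicate block and 68 with the block for animal number ranges. In EC 50 were called, against 107 by DESeq2 and 79 with all 22 libraries in one fit. DESeq2 gave Grik1 an adjusted p of 4.504e-05 in HIP and 0.0611 in EC. Grik1 rests on 416 to 987 reads per library.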
